A study of Mus musculus with 6 samples.

Results

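miR-21 was followed here in the right lungs of 7-day-old mice raised in room air or in high oxygen. The assay (mmu-miR-21 in the deposited table) was found by name, as the wells listed as miR-21 once the species prefix and any trailing assay number were dropped, and the other strand, written miR-21#, was not counted. This gave 1 of 750 miRNA assays on 2 PCR cards, in well B03 of the first card, which holds 375 of them. The room air group had 3 lung samples and the hyperoxia group 3, all from neonates taken at day 7. Hyperoxia pups went into 95% oxygen within 12 h of birth and stayed there for 7 days (168 h), while the dams were exchanged between both atmospheres each day. Pups of both groups were anaesthetised with ketamine and xylazine and the pulmonary artery was flushed with PBS before the lung was frozen. Strain, sex and litter are not given in the sources used here, nor whether the samples of a group came from different animals, so the p-values describe only how far these samples scatter, part of which may be technical. Whole lung was measured, in which more cells of a type and more miR-21 per cell cannot be told apart.

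miR-21 is cut from a hairpin transcribed from its own promoter within the Vmp1 locus. It is carried by many cell types, among them macrophages, fibroblasts and epithelium, and its transcription is known to be switched on by AP-1, STAT3 and NF-kB, while TGF-beta signalling speeds the processing of its precursor. Its known targets include Pdcd4, Spry1 and Smad7, brakes on translation, growth factor and TGF-beta signalling, and it is best known in lung for its increase in fibrosis. Target mRNAs were not analysed here.

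The sequences below show what the miR-21 assay reads and what it must be told apart from. They were taken from RefSeq (GRCm38.p6), where the older name miR-21 corresponds to miR-21a-5p, and capitals mark the seed, bases 2 to 8 from the 5′ end, which pairs with target mRNAs. The mature strand lies on chromosome 11 on the minus strand (chr11:86584120-86584141), within the span of Vmp1, and the other strand of the same hairpin lies beside it (chr11:86584082-86584103).
miR-21a-5p: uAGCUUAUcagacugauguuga
miR-21a-3p: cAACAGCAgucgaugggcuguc
miR-21c: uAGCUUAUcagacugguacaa
miR-21b: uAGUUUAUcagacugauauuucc
Of the 1738 mature mouse sequences in the RefSeq table, which does not list miR-590-5p (described further on), 1 other shared the seed of miR-21, namely miR-21c (chr8:128278188-128278208, minus strand), which is identical over its first 15 bases and has no assay on the cards. miR-21b (chr3:29636768-29636790, plus strand) differs within the seed by C4U, counted from the 5′ end of miR-21a-5p. Whether the miR-21 assay also reads miR-21c was not tested.

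miR-21 reached the detection threshold earlier in every hyperoxia lung than in any room air lung. The signal is a threshold cycle (Ct), the PCR cycle at which a well crosses a fixed brightness, so an earlier (lower) Ct means more RNA, and at full PCR efficiency each cycle is a factor of 2. Room air replicates 1 to 3 had a miR-21 Ct of 17.48, 17.37 and 17.32, and hyperoxia replicates 1 to 3 had 16.45, 16.14 and 17.03. The room air samples lay within a narrow band, the hyperoxia samples were more spread, and hyperoxia replicate 3 was the closest to room air. The room air mean was 17.4 ± 0.083 cycles (SD, n = 3). The hyperoxia mean was 16.5 ± 0.45 (SD, n = 3), a difference of -0.85 cycles with an exact two-sided permutation p of 0.1, the smallest that 3 against 3 can give.

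Most miRNAs of the card went the other way in raw Ct. For the 282 first-card miRNAs detected (Ct under 35) in all 6 samples, the mean Ct of room air replicates 1 to 3 was 22.03, 22.48 and 22.60. That of hyperoxia replicates 1 to 3 was 23.47, 22.61 and 23.31. Of these 282 miRNAs, 131 (46.5%) were later in all 3 hyperoxia samples than in all 3 room air samples and 3 (1.06%) were earlier in all 3. The 3 were miR-21, miR-34a, a p53-induced miRNA, and the miR-322 assay of well P24. miR-34a and miR-322 are named because they share that count. The miR-322 Ct was 28.719, 28.25 and 27.32 in room air replicates 1 to 3 and 25.913, 19.965 and 20.072 in hyperoxia replicates 1 to 3. Its first-card cluster partners miR-503, miR-351, miR-450a, miR-450b and miR-542 had later mean Ct values in hyperoxia.

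**Figure D1:**
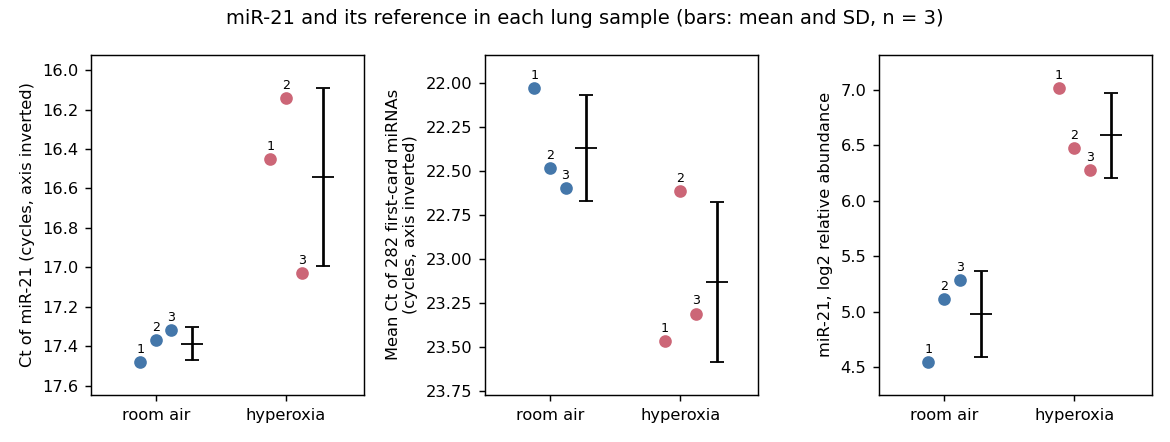
Ct of miR-21 (left), mean Ct of the 282 first-card miRNAs detected in all samples (middle) and log2 relative abundance of miR-21 (right) in each room air and hyperoxia lung sample; numbers are replicate numbers and bars the mean and SD of 3 samples. On both scales of miR-21 the 3 hyperoxia samples lie above the 3 room air samples, while the mean of the card lies lower in hyperoxia.

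Relative to that card mean, miR-21 was 3.05-fold higher in hyperoxia, yet the difference did not pass the threshold over all assays. Relative abundance is the mean Ct of the 282 miRNAs minus the Ct of the assay, on a log2 scale. For miR-21 it was 4.55, 5.11 and 5.28 in room air replicates 1 to 3 and 7.02, 6.47 and 6.28 in hyperoxia replicates 1 to 3. The groups did not overlap, and the nearest samples were the third of each group. The log2 fold change was 1.61 ± 0.33 (SE, n = 3 per group), with an unadjusted p of 0.00357 and a Benjamini-Hochberg adjusted p of 0.314 over 551 assays in limma. The exact permutation p was 0.1. Over both cards limma placed 0 assays past an adjusted p of 0.05 (0.0% higher and 0.0% lower), while an unadjusted p under 0.05 was found for 20 assays on the higher side (3.63%) and 30 on the lower (5.44%). That split moved with the reference: 8 higher and 116 lower with none, 8 and 53 with the control RNAs, 12 and 40 with the U6 wells of row A, 27 and 21 with the first-card mean for both cards, and 34 and 11 with miR-16. For the 302 first-card assays tested these counts were 15 (4.97%), miR-21 included, and 18 (5.96%). On that card the groups did not overlap in the higher direction for 19 (6.29%), miR-21 included, and in the lower direction for 49 (16.2%).

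miR-21 combined a sizeable difference with an ordinary spread. Its pooled SD between samples of a group was 0.38 on the log2 scale, close to the median of 0.42 over the 282 miRNAs, and 42.6% of them had a smaller one. By size of log2 fold change it held place 23 among the 302 first-card assays. Of the 22 assays ahead of it, 21 had a larger SE, 8 lay in plate row G, and 7 had groups that did not overlap. miR-34a, at 2.55 ± 0.28 (SE, n = 3 per group), was the exception in SE. The share of row G among the assays tested was not counted, and why it holds several of the 22 was not tested. With row G left out of the fit, miR-21 was at 1.67 (limma adjusted p = 0.255). By unadjusted p, miR-21 held place 6 of 551 and place 2 among assays that were higher in hyperoxia, behind miR-34a, which also missed the threshold (limma adjusted p = 0.0723).

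**Figure D2:**
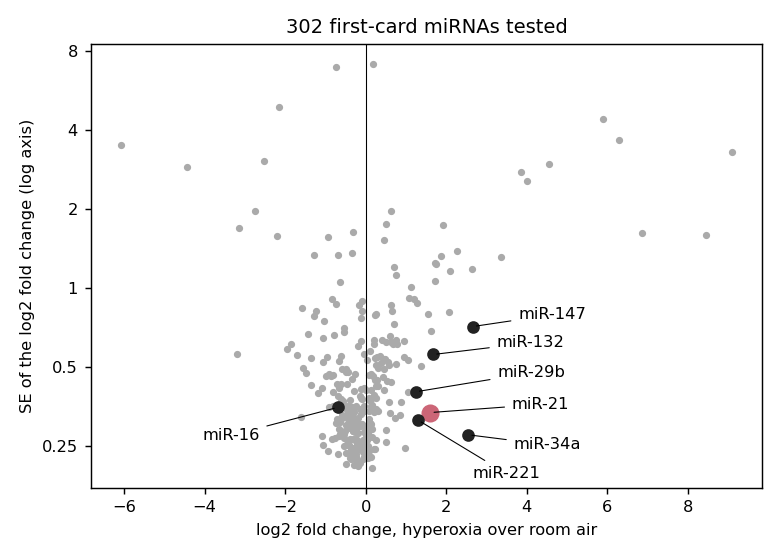
Log2 fold change of hyperoxia over room air (horizontal axis) against its SE (vertical axis, log scale) for the 302 first-card miRNAs tested; each point is 1 assay. miR-21 lies at 1.61 with an SE of 0.33, between miR-221 (1.30) and miR-34a (2.55), while most assays with larger values also have a larger SE; miR-16 lies at -0.70.

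In room air miR-21 was one of the more abundant miRNAs of the lung without being among the foremost, and in hyperoxia it stood much nearer the top. Ranks compare wells by Ct and assume that assays amplify alike, which was not tested. Among the 375 first-card miRNA wells, miR-21 ranked 45, 35 and 35 in room air replicates 1 to 3, where 1 is the lowest Ct, and 13, 13 and 17 in hyperoxia replicates 1 to 3. The ranks did not overlap, and the mean went from 38.3 ± 5.77 (SD, n = 3) to 14.3 ± 2.31 (SD, n = 3), with an exact permutation p of 0.1. Ranks need no reference RNA, and they were the same when each miRNA name was counted with 1 well, over 358 names. miR-21 also drew nearer to the earliest miRNA of each sample, from 5.60 ± 0.85 cycles behind it (SD, n = 3) to 4.42 ± 0.75 (SD, n = 3), but there the groups overlapped and the exact permutation p was 0.2.

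By mean room air Ct miR-21 held place 37. Just ahead of it were miR-222 (17.4 ± 0.74, SD, n = 3), let-7c (17.3 ± 0.59) and miR-342-3p (17.3 ± 1.01), and just behind it miR-429 (17.4 ± 0.50), miR-130a (17.4 ± 0.11) and miR-200a (17.6 ± 0.22). The room air ranges of all 6 neighbours overlapped that of miR-21, so their order is not resolved in room air. In hyperoxia the same 6 lay at places 27, 32, 46, 43, 41 and 40, and miR-21 at place 12 with a mean of 16.5 cycles. The closest of the 6 there was miR-222, made from the same transcript as miR-221, at 17.4 ± 0.55 cycles (SD, n = 3).

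In all, 25 of the miRNAs ahead of miR-21 in room air were behind it in hyperoxia. Examples, chosen after their values were seen, were miR-26a, which went from place 9 to place 24, the lymphocyte miRNA miR-150, from 20 to 38, miR-17 of the growth-promoting miR-17 cluster, from 17 to 18, and the epithelial miR-200c, from 23 to 26. The endothelial miR-126-3p held place 1 in both groups, with a mean Ct of 11.8 in room air and 13.2 in hyperoxia. These endothelial and epithelial miRNAs were thus well detected, and the liver miRNA miR-122 stood at place 216 in room air and 232 in hyperoxia.

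**Figure D3:**
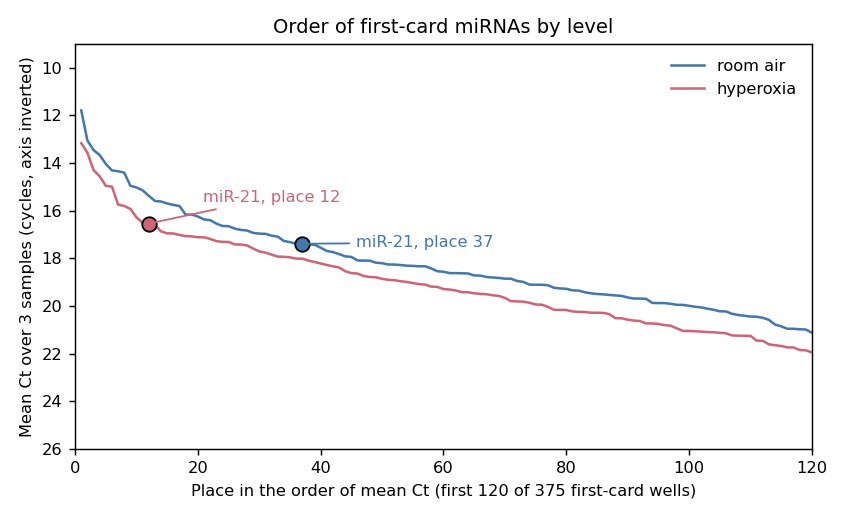
Mean Ct over 3 samples (vertical axis, inverted) against place in the order of mean Ct for the first 120 of 375 first-card miRNA wells, drawn as 1 line per group. miR-21, the marked point, is at place 37 in room air and place 12 in hyperoxia, and the hyperoxia line as a whole lies at later cycles.

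The size of the miR-21 difference depended on what it was measured against, while it was higher in hyperoxia on average against each control RNA. Against the U6 wells of plate row A, the reference of the deposited table, the log2 ratio of miR-21 was -8.12, -7.39 and -7.06 in room air replicates 1 to 3. In hyperoxia replicates 1 to 3 it was -6.13, -5.94 and -6.65, a difference of 1.28. The authors' deposited table gives a fold of 2.43 for miR-21 on this reference. Against the U6 wells of row B the difference was 1.91. Wells of U6 carry identical Ct values in rows A and B for room air replicates 1 and 3, so these are not independent readings.

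The other control RNAs gave smaller differences. Against snoRNA202 the log2 ratio was -3.05, -2.99 and -3.15 in room air replicates 1 to 3 and -2.03, -2.22 and -2.28 in hyperoxia replicates 1 to 3. Samples of a group lay close together here. That is a difference of 0.89, with an SD of 0.077 in room air and 0.13 in hyperoxia (n = 3 each). Against U87 the difference was 0.72 and against snoRNA135 it was 0.77, with the hyperoxia minimum of 2.236 barely above the room air maximum of 2.225 for snoRNA135. The exact permutation p was 0.1 for each U6 row, snoRNA202, U87 and snoRNA135. Against the Y1 RNA the difference was 1.26, the groups overlapped and the exact permutation p was 0.2. The 6 comparisons share the same miR-21 values, and an adjusted p over them could not fall below 0.1. From room air to hyperoxia the mean Ct went from 14.33 to 14.36 for snoRNA202, from 19.24 to 19.16 for snoRNA135 and from 20.41 to 20.28 for U87. It went from 19.95 to 20.35 for Y1, from 9.87 to 10.30 for U6 of row A and from 9.91 to 10.97 for U6 of row B. The mean of the first-card miRNAs went from 22.37 to 23.13.

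Against single miRNAs the spread was wider. Against miR-16, a miRNA often used as a reference, the difference was 2.31, and miR-16 itself was at -0.70 ± 0.35 (SE, n = 3 per group) in limma. Over the 281 other first-card miRNAs detected in all 6 samples, the log2 ratio of miR-21 to the miRNA was higher in hyperoxia on average for 264, with a median of 1.76 and a 10th to 90th percentile of 0.74 to 2.53. The ratios did not overlap in the higher direction for 210 of the 281 and in the lower direction for 2. These ratios share the miR-21 values and are given as a description. A single reference value per sample moves miR-21 and the first-card median alike, so the distance between them, 1.74, is fixed by construction. Quantile normalization, which can change it, gave 1.87. With the 5 control RNAs together as reference miR-21 itself was at 1.04 and with no reference at 0.85, where the first-card median was at -0.69 and -0.90.

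**Figure D4:**
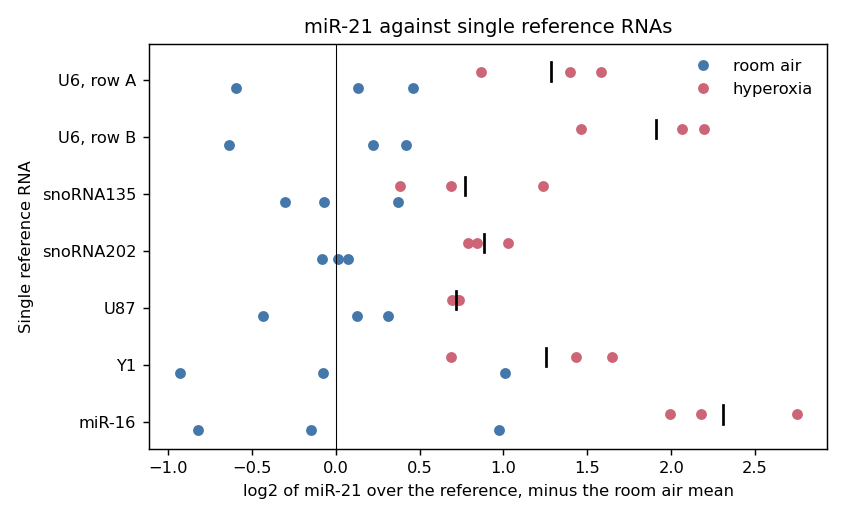
Log2 ratio of miR-21 to each of 7 single references, minus its room air mean (horizontal axis), for the 3 room air and 3 hyperoxia samples; black ticks are the hyperoxia mean. The means lie between 0.72 for U87 and 2.31 for miR-16, and the groups overlap only for Y1.

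The other strand of the hairpin, miR-21#, was also higher in hyperoxia in the samples that could be used. Its assay is on the second card, where room air replicate 1 and hyperoxia replicate 2 carry the same Ct in 308 of 309 wells amplified in both, against 0 on the first card, so those 2 columns were left out. miR-21# had a Ct of 29.39 and 28.60 in room air replicates 2 and 3, and of 25.24 and 27.10 in hyperoxia replicates 1 and 3. Both hyperoxia samples were earlier than both room air samples, and by level miR-21# came many cycles later than miR-21, on another card. The log2 fold change relative to the second-card mean was 3.01 ± 0.78 (SE, n = 2 per group; limma unadjusted p = 0.0223, adjusted p = 0.446). The shared column reads 25.20, which gives 3.30 if it belongs to hyperoxia, 1.71 if it belongs to room air, and 2.01 if kept in both. Names on the second card are also in doubt: all 105 names with an assay number match the number listed 3 wells later and 0 match their own well. The identity of the miR-21# well is therefore uncertain. The same doubt holds for the other second-card assays that are named or counted in lists below.

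miR-590-5p is the further miRNA known for the seed of miR-21, and was looked at for that reason outside the naming rule. Its room air Ct was 22.81, 20.67 and 21.56, and its hyperoxia Ct was 20.74, 35.18 and 22.42. The groups overlapped and hyperoxia replicate 2 was not detected. Without that sample limma gave a log2 fold change of 1.12 ± 1.00 (SE, n = 3 and 2; adjusted p = 0.754).

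The 5 first-card miRNAs whose pattern over the 6 samples was most like that of miR-21 were miR-29b, miR-221, miR-425, miR-29c and miR-29a. Likeness was the mean absolute difference between the log2 profiles, each centred on its own mean, which does not depend on the reference. It was 0.25 log2 units for miR-29b, 0.26 for miR-221, 0.31 for miR-425, 0.32 for miR-29c and 0.38 for miR-29a, against a median of 0.95 over 281 miRNAs. The miR-29 miRNAs repress collagens and other matrix genes, and miR-221 is made in endothelium and other cells. The relative abundance of miR-221 in room air was 2.49, 2.52 and 3.16 and in hyperoxia 4.21, 4.19 and 3.68, with no overlap. For miR-29b the room air values were -4.17, -3.73 and -2.82 and the hyperoxia values -2.32, -2.15 and -2.50, also with no overlap but with room air replicate 3 close to hyperoxia. miR-425 overlapped through hyperoxia replicate 2, at 4.40 against 4.78 in room air replicate 3, and miR-29a overlapped through room air replicate 3 and hyperoxia replicate 3, both at 4.36. A second-card assay named hsa-miR-425, whose identity is uncertain for the reason given above, went the other way, at -1.01 ± 0.47 (SE, n = 2 per group, limma adjusted p = 0.667).

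**Figure D5:**
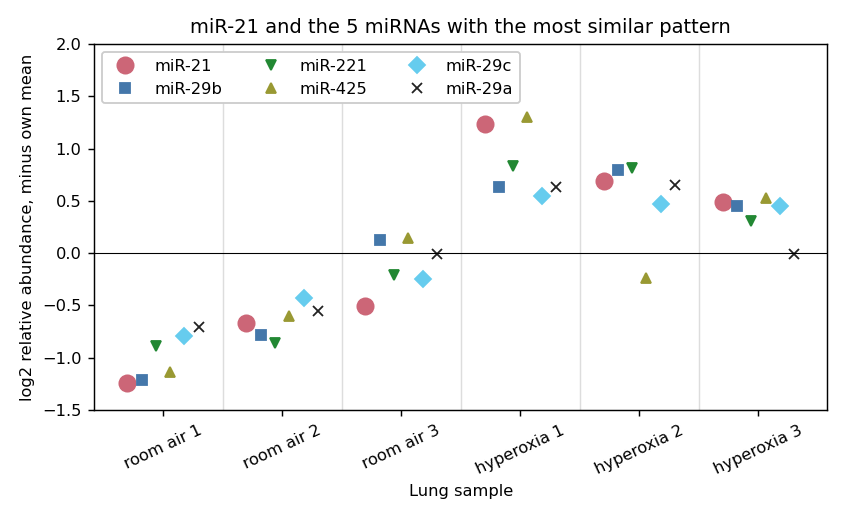
Log2 relative abundance minus the mean of each miRNA (vertical axis) in the 6 lung samples for miR-21 and the 5 miRNAs nearest to it in pattern. miR-21, miR-29b, miR-221 and miR-29c are higher in every hyperoxia sample than in every room air sample, while miR-425 and miR-29a overlap between groups.

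miR-21 was among the higher members of a list of miRNAs reported to rise in or promote tissue fibrosis. Of the 11 assays of its 10 names, miR-21 included, 8 were above 0 and 3 below, and 0 passed. The median log2 fold change was 0.68, against -0.12 over all 551 assays tested. Of the first-card assays tested 41.1% were above 0. With the control RNAs as reference 6 of the 11 were above 0 and the median was 0.13, and with miR-16 all 11 were above 0. Besides miR-34a and miR-21, miR-221 was at 1.30 ± 0.31 (limma adjusted p = 0.333), and the lowest was the smooth muscle miR-145 at -0.68 ± 0.23 (SE, n = 3 per group; limma adjusted p = 0.477). miR-145 was at 0.02 with miR-16 as reference. miR-21, miR-34a, miR-221 and miR-222 made up the 4 of the 11 whose groups did not overlap in the higher direction. The share was 9.07% of all assays tested on both cards and 6.29% on the first card, which holds 10 of the 11. In the lower direction there was 1, against 16.5% on both cards and 16.2% on the first. The count in the higher direction depended on the reference. In raw Ct, miR-221 ran from 19.44 to 19.96 in room air and from 18.42 to 19.63 in hyperoxia. miR-222 ran from 16.72 to 18.18 and from 16.81 to 17.85, so the groups of both overlapped.

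A second list, of miRNAs reported to limit fibrosis, lay around 0. Of its 21 assays 11 were above 0 and 10 below, with a median of 0.069, and 0 passed. With the control RNAs as reference, or with none, 3 were above 0 and 18 below, and with miR-16 this was turned around, 18 above and 3 below. The highest were miR-29b at 1.25 ± 0.40, miR-29c at 0.98 ± 0.25 and miR-29a at 0.85 ± 0.33, and the lowest was miR-26a at -1.60 ± 0.84 (SE, n = 3 per group; limma adjusted p from 0.333 to 0.667). miR-26a was at -1.01 without hyperoxia replicate 2 and at -2.52 without hyperoxia replicate 1. miR-29 members, which by this list would oppose the reported effect of miR-21, thus stood on the same side of 0 as miR-21. Their size depended on the reference. With the control RNAs miR-29b, miR-29c and miR-29a were at 0.68, 0.41 and 0.28, and with no normalization at 0.49, 0.22 and 0.086. The raw Ct groups of each overlapped. The groups did not overlap in the higher direction for 2 of the 21 and in the lower direction for 1. The shares were 9.07% and 16.5% of all assays, and 6.29% and 16.2% on the first card.

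miRNAs whose genes are switched on by NF-kB, AP-1, STAT3 or CREB, the kind of control known for miR-21, were mostly above 0. Of 11 assays of 10 names, 9 of them on the first card, 10 were above 0, with a median of 0.94, and 0 passed. The share above 0 was 41.1% of the first-card assays tested. miR-146b was counted with an assay on each card, and miR-221 and miR-222 are made from the same transcript. The 11 assays are therefore not independent. miR-21 is itself on this list. This list also shares miR-155, miR-221 and miR-222 with the list of miRNAs that promote fibrosis, so the counts of both lists are not independent. With the control RNAs as reference 9 of the 11 were above 0, at a median of 0.40, and with none 7 were, at 0.54. miR-147, induced in activated macrophages, was the highest at 2.66 ± 0.71 (limma adjusted p = 0.373) and miR-132, a CREB target, was at 1.68 ± 0.56 (SE, n = 3 per group; limma adjusted p = 0.456). miR-146a, a feedback inhibitor of NF-kB signalling, was the lowest at -0.13 ± 0.39 (limma adjusted p = 0.935), and turned positive under several settings, at 0.56 with miR-16 as reference. The groups did not overlap in the higher direction for 6 of the 11, against the same 9.07% (6.29% on the first card). In raw Ct, miR-21 was the only first-card assay of this list whose groups did not overlap in that direction.

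Markers of cell types that could carry miR-21 differed between some samples. The myeloid markers miR-223, miR-142-3p and miR-142-5p had 3 of 4 assays above 0 with 0 passing (2 of 4 with no normalization or quantile normalization), and their summed first-card level, relative to the card mean and on a linear scale, ran from 34.1 to 36.4 in room air and was 63.5, 107 and 36.3 in hyperoxia replicates 1 to 3. Hyperoxia replicate 3 lay just below the room air maximum of this sum, a small margin that rests on 1 sample. The summed smooth muscle and mesenchymal markers ran from 333.1 to 395 in room air and from 253 to 332.9 in hyperoxia, with 4 of 7 assays above 0, or 1 of 7 with the control RNAs as reference. miR-145 alone made up 57.0% to 72.8% of this sum, and without it the range was 90.6 to 119 in room air and 90.7 to 140 in hyperoxia. The lymphocyte marker miR-150 had a level of 56.1 to 85.4 in room air and 29.9 to 38.8 in hyperoxia. The 7 epithelial first-card markers summed to 161 to 181 in room air and 108 to 187 in hyperoxia. Of 9 epithelial assays on both cards 4 were above 0, against 0 with the control RNAs or no reference and 9 with miR-16. The endothelial miR-126-3p and miR-126-5p were both below 0 (both above 0 with miR-16), and summed to 1111 to 2379 in room air and 1094 to 1256 in hyperoxia. Of 5 ciliated cell assays 2 were above 0. Lower groups that did not overlap were found for 2, miR-449a at -1.44 ± 0.67 and miR-449b at -1.03 ± 0.32 on the second card. The share over all assays was 16.5%. A first-card assay also named miR-449b was hardly detected, with a mean Ct of 37.0 in room air and 40 in hyperoxia. The second-card name is in doubt as described for miR-21#. Of 3 erythroid assays 2 were above 0, and hsa-miR-144 on the second card was at -1.29 ± 0.32. None of the marker assays passed. The part of the cell types in the miR-21 difference was not tested.

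Leaving out 1 sample at a time kept miR-21 between 1.39 and 1.75 on the log2 scale, with a limma adjusted p from 0.112 to 0.637. The adjustment ran over 291 to 544 assays, as most of these fits had too few second-card samples to test that card. The lowest value came without hyperoxia replicate 1 and the highest without room air replicate 3.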

How the data were processed

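Total RNA from 6 lung samples was reverse transcribed with the Megaplex primer sets A and B and pre-amplified for 12 cycles, per the labels' protocols. The authors deposited 1 table of raw Ct per well, with group means, Ct differences and a ratio (fold) between groups; for the instrument, software and threshold, nothing is given in the sources used here. Wells without amplification read 40. First-card miRNAs detected per sample numbered 307 to 319; with 3 samples a group their number limits the precision.

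From the Ct values, wells of 35 or more were set missing and log2 relative abundance was taken within each card (282 and 249 reference miRNAs). limma 3.58.1 in R 4.3.3 (lmFit, eBayes, two-sided; prior degrees of freedom 1.62) tested assays detected in at least 2 samples of each group, with Benjamini-Hochberg adjustment over 551 assays and a threshold of 0.05. The fit was checked on simulated data. Single values had exact permutation tests. Second-card values of room air 1 and hyperoxia 2 were left out. The members, lists and tests were chosen with earlier results of these data known. Named miRNAs were miR-21, its other strand, its neighbours in level, the 5 nearest in pattern, and in each of the 3 lists on fibrosis and transcription factors the highest, the lowest and those with an unadjusted p under 0.05. Outside this rule, miR-16 is named as a reference, miR-590-5p for its seed, and miR-322 for a shared count, with its cluster partners. Cell type markers and examples in the order of levels are named where given. Alternatives covered the reference, Ct ceiling, filter, shared values, cards, plate row, variance model, sample weights, replicate block and each sample left out.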

Additional observations from a re-analysis of the deposited data

How the results depend on the processing

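miR-21 was above 0 in all 28 alternatives, from 0.85 with no normalization to 2.31 with miR-16 as reference, and passed in 0 of them, with limma adjusted p from 0.0778 to 0.637; its unadjusted p was under 0.05 in 27. The difference in mean rank, -24, ran from -25.7 to -20.7 with 1 sample left out; Ct ceilings of 32 and 28 lie above the Ct of miR-21 and cannot move it. The count of assays past the adjusted threshold, 0 as reported, was 1 with a Ct ceiling of 32 or 28, the first card alone, row G left out, a variance trend or sample weights (miR-34a each time), and 8 with a Ct of 40 taken as a measurement; it ran from 0 to 1 with 1 sample left out. The count with an unadjusted p under 0.05, 50 as reported, was 124 without normalization (8 higher, 116 lower) and 33 with a ceiling of 28, and 19 to 47 with 1 sample left out. The replicate block gave 27 such assays of 301 tested and put miR-21 at a limma adjusted p of 0.49. Same-numbered samples correlated at -0.34, -0.23 and -0.18 across 282 assays, and differently numbered ones from -0.25 to 0.36. With 3 samples per group these correlations cannot tell whether samples were paired, by litter or otherwise. miR-145 turned to 0.0203 with miR-16 as reference, and miR-146a to 0.563 there, to 0.023 with quantile normalization, and to 0.0144, 0.0188 and 0.0486 without room air replicate 1, room air replicate 2 or hyperoxia replicate 2, within a range of -0.446 to 0.0486 with 1 sample left out. The causes were not tested.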
